A study of Homo sapiens with 12 samples.

Results

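The IGF-binding proteins examined here are IGFBP2, IGFBP3, IGFBP4, IGFBP5, IGFBP6 and IGFBP7, 6 of the 35559 genes for which transcripts were summed. The genes were matched by symbol in GENCODE 29, and all 6 passed the filter on low counts that left 15090 genes for testing. They were chosen by their measured values in these same libraries, with their differences from control in view. The comparisons with control below are therefore a description of these libraries, and the calls and adjusted p-values only place the genes within the fit of all genes.

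RNA came from WM-266-4, a human melanoma cell line, in which TYRO3, a receptor tyrosine kinase of the TAM family, was stably depleted with a lentivirus in every group, controls included. The cells were transfected with a pEZY-myc-his plasmid for GFP (control), wild-type TYRO3 (WT), the I449A variant at the gamma-secretase cleavage site (ΔGS) or the P408A, L409P and G419P variant at the predicted ADAM cleavage site (ΔADAM), and were serum starved overnight. The labels name GFP as the control, whereas the text of the study names a vector control and, in a legend, an empty plasmid. Each of 3 experiments gave 1 library per group, 12 in all. The model is a single cell line with TYRO3 expressed from a plasmid well above the level left by the knock-down. The p-values measure only the spread between the libraries of these 3 experiments that is left after the fit. Where a fit holds a term for each experiment, differences in level between the experiments are no part of that spread.

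Insulin-like growth factors (IGFs) signal through the IGF1 receptor, and the secreted IGF-binding proteins hold them in high-affinity complexes that prolong their lifetime and limit or direct their access to the receptor. Proteases release the ligand by cutting the binding proteins. IGFBP7 carries the same amino-terminal domain but binds IGFs weakly, and several members also act on cells through the matrix or integrins. Melanoma cells secrete several of the family.

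The total of estimated counts ran from 4008293 in the control library of experiment 1 to 38184838 in the control library of experiment 2, and the second lowest was 18365999. TYRO3 was between 47.3 and 56.6 CPM (estimated counts relative to the library's total, scaled by the TMM method) in the control libraries and between 1181 and 3694 CPM in the 9 TYRO3 libraries. It was highest in experiment 1 in all 3 constructs. All 9 melanocyte lineage markers had counts in every library, whereas the endothelial and leukocyte markers summed to at most 2.42 and 2.22 CPM in any library. Fibroblast markers summed to between 53.3 and 98.9 CPM and keratinocyte markers to between 30.4 and 51.8 CPM, with 2 of 4 at 0 in all libraries. Nearly all of the keratinocyte sum was KRT10, at 30.3 to 51.8 CPM, while KRT14 reached at most 0.442 CPM.

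The regions upstream of IGFBP5 and IGFBP3 are shown because these genes differed most from control, in opposite directions. Both are the 250 bases before the RefSeq start on the minus strand of GRCh38.p14, read 5′ to 3′ on the gene's strand, at chr2:216695550-216695799 for IGFBP5 and chr7:45921273-45921522 for IGFBP3. Capitals mark matches, on either strand, to the motifs searched, which were the E-box CACGTG, the M-box core CATGTG, the GC box GGGCGG, the AP-1-type element TGANTCA, the TATA box TATAAA or its variant TATTTAA.
IGFBP5: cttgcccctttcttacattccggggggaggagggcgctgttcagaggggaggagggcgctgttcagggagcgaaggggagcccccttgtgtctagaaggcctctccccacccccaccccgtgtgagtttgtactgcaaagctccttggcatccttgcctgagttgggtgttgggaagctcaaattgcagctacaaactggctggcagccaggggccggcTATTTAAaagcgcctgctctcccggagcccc
IGFBP3: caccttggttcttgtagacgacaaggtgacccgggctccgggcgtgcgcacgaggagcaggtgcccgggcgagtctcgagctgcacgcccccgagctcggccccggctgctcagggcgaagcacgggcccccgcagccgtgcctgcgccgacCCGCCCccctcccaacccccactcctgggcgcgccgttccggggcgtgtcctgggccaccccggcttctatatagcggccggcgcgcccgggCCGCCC

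The IGFBP5 window held TATTTAA starting 31 bases before the gene start, a match found in 4.17% of 35116 windows of this length. TATTTAA was the only TATA variant searched, so this share is a description and no test of the match. The IGFBP3 window held GGGCGG, on the opposite strand as CCGCCC, at 98 and 6 bases before the start, and this motif was in 42.6% of the windows. CACGTG (in 6.35% of all windows), CATGTG (9.42%), TGANTCA (6.57%) and TATAAA (10.7%) had no match in either window. The IGFBP3 window also holds the TATA-like string tatata, left in lower case because it was not among the motifs searched. Its share of all windows was not counted. A match describes the letters only. Windows of IGFBP2, IGFBP4 and IGFBP6 were also found in RefSeq, so that 5 of the 6 genes had one.

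In the control cells IGFBP5 and IGFBP7 were the most abundant family members and IGFBP6 the least. Levels between genes were compared in TPM, the unit of kallisto that takes transcript length into account. IGFBP5 was at 199, 242 and 161 TPM in the control libraries of experiments 1, 2 and 3, and IGFBP7 at 177, 178 and 201 TPM, so that their ranges overlapped. IGFBP4 followed at 63.8, 69.9 and 68.1 TPM, overlapping with IGFBP2 at 51.1, 54.1 and 75.6 TPM. IGFBP3 was lower, at 26.2, 37.9 and 14.5 TPM, and did not overlap with IGFBP2. IGFBP6 was lowest, at 8.17, 7.98 and 3.70 TPM, and its control library of experiment 1 rested on 14 counts. IGFBP1, the remaining classical member, had 0 counts in 11 of the 12 libraries and 1 count in the other, where 3 counts would correspond to 0.789 CPM in the smallest library and 0.0809 CPM in the largest.

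IGFBP5 was lower in all 9 TYRO3 libraries than in the control library of the same experiment. IGFBP5 binds IGFs and extracellular matrix and was the member with the largest difference. In the control libraries of experiments 1, 2 and 3 it was at 936, 944 and 677 CPM. With WT TYRO3 it was at 204, 625 and 421 CPM. With ΔGS it was at 273, 519 and 228 CPM, and with ΔADAM at 245, 595 and 229 CPM. The highest TYRO3 library, WT in experiment 2 at 625 CPM, was below the lowest control library. The control range thus did not overlap with that of any TYRO3 group, while the 3 TYRO3 groups overlapped with each other. How many of all genes separate from control in this way was not counted, here or for the genes named below. Nor was it counted how many keep 1 direction in all 9 within-experiment comparisons. These 9 comparisons reuse 3 control libraries and are not independent. Within experiments, the level with WT was 21.8%, 66.2% and 62.2% of control, with ΔGS 29.1%, 55.0% and 33.6%, and with ΔADAM 26.1%, 63.1% and 33.9%. The difference was smallest in experiment 2 for each construct and largest in experiment 1, whose control library was the shallowest.

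**Figure D1:**
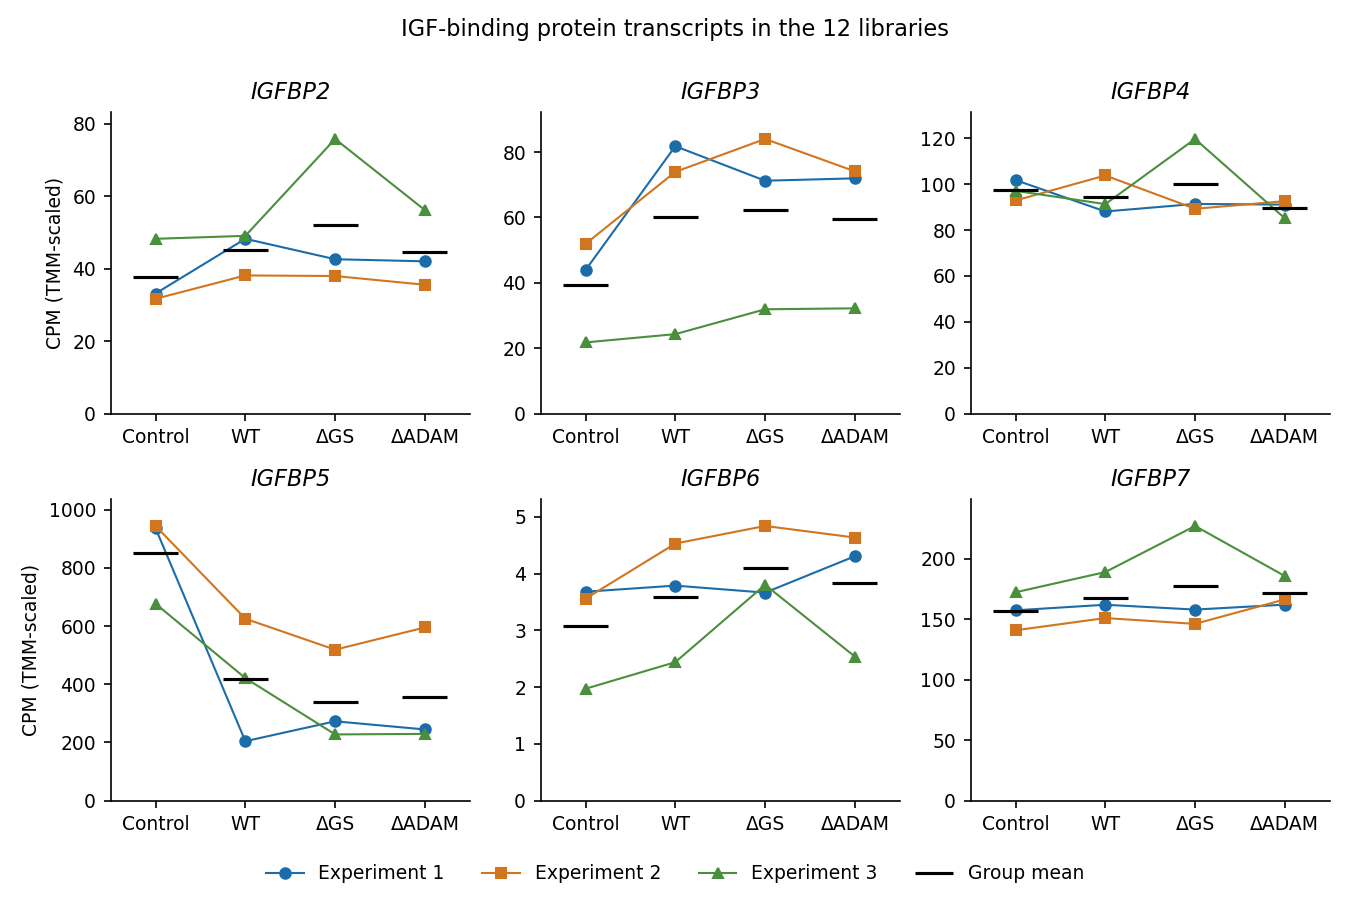
CPM (TMM-scaled, linear axes from 0) of the 6 IGF-binding protein genes in the 12 libraries, by group. Lines join the 4 libraries of an experiment and bars are group means of 3 libraries. IGFBP5 has a mean of 852 CPM in control and between 339.6 and 417 CPM with TYRO3, IGFBP3 is higher than control within each experiment, and IGFBP4 stays between 85.1 and 119.7 CPM.

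In the model that separates experiment 1 from the other experiments (the batch term), the log2 fold change of IGFBP5 over control was -1.15 ± 0.42 (SE) with WT, -1.38 ± 0.42 with ΔGS and -1.34 ± 0.42 with ΔADAM. Its adjusted p-values from edgeR's quasi-likelihood test over all genes were 0.233, 0.114 and 0.109, so that IGFBP5 was not called at a fold over 1.5 and an adjusted p of at most 0.05 in any of the 3 comparisons. With a term for each experiment, which the shared experiment labels allow, the log2 fold changes were -1.14 ± 0.27, -1.44 ± 0.27 and -1.42 ± 0.27, the adjusted p-values 0.0471, 0.0140 and 0.0133, and IGFBP5 was called in all 3. Without the shallow control library of experiment 1 these values were -0.80, -1.07 and -1.05 (adjusted p = 0.176, 0.0601 and 0.0589), and IGFBP5 was called in none of the 3. Of the 12 fits with a term for each experiment and 1 library left out, IGFBP5 was called in 3 for WT (those without the control library of experiment 2, the WT library of experiment 3 or the ΔGS library of experiment 3), in 11 for ΔGS and in 9 for ΔADAM, where the call was also lost without the ΔADAM library of experiment 1 or 3. In experiments 2 and 3 alone the log2 fold changes were -0.61, -1.11 and -0.95.

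IGFBP3 was the member furthest above control, higher than control in 9 of 9 within-experiment comparisons. IGFBP3 is the main carrier of IGFs in serum. It was at 43.9, 51.9 and 21.8 CPM in the control libraries of experiments 1, 2 and 3 and at 81.8, 73.9 and 24.3 CPM with WT TYRO3. With ΔGS it was at 71.2, 84.0 and 31.9 CPM, and with ΔADAM at 72.0, 74.1 and 32.2 CPM. All 4 libraries of experiment 3 were below every library of the other experiments, and its TYRO3 libraries lay above its own control. The group ranges therefore overlapped, and only the comparison within experiments separated them. The ratios to control ran from 1.12 (WT, experiment 3) to 1.86 (WT, experiment 1), and with ΔGS they were 1.62, 1.62 and 1.47.

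The log2 fold change of IGFBP3 over control was 0.56 ± 0.49 with WT, 0.65 ± 0.49 with ΔGS and 0.57 ± 0.49 with ΔADAM in the model with the batch term, with adjusted p-values of 0.645, 0.506 and 0.561. With a term for each experiment the estimates were 0.53 ± 0.12, 0.63 ± 0.12 and 0.58 ± 0.12 and the adjusted p-values 0.0440, 0.0148 and 0.0180. The threshold on the fold lies at 0.585 on the log2 scale, so IGFBP3 was called with ΔGS only, and the estimate with ΔADAM lay just under the threshold. The ΔGS call was lost without the control library of experiment 1 (0.58) or the ΔGS library of experiment 2 (adjusted p = 0.0632). With WT it was called in 1 of these 12 fits, the one without the WT library of experiment 3 (0.67), and with ΔADAM in 4.

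**Figure D2:**
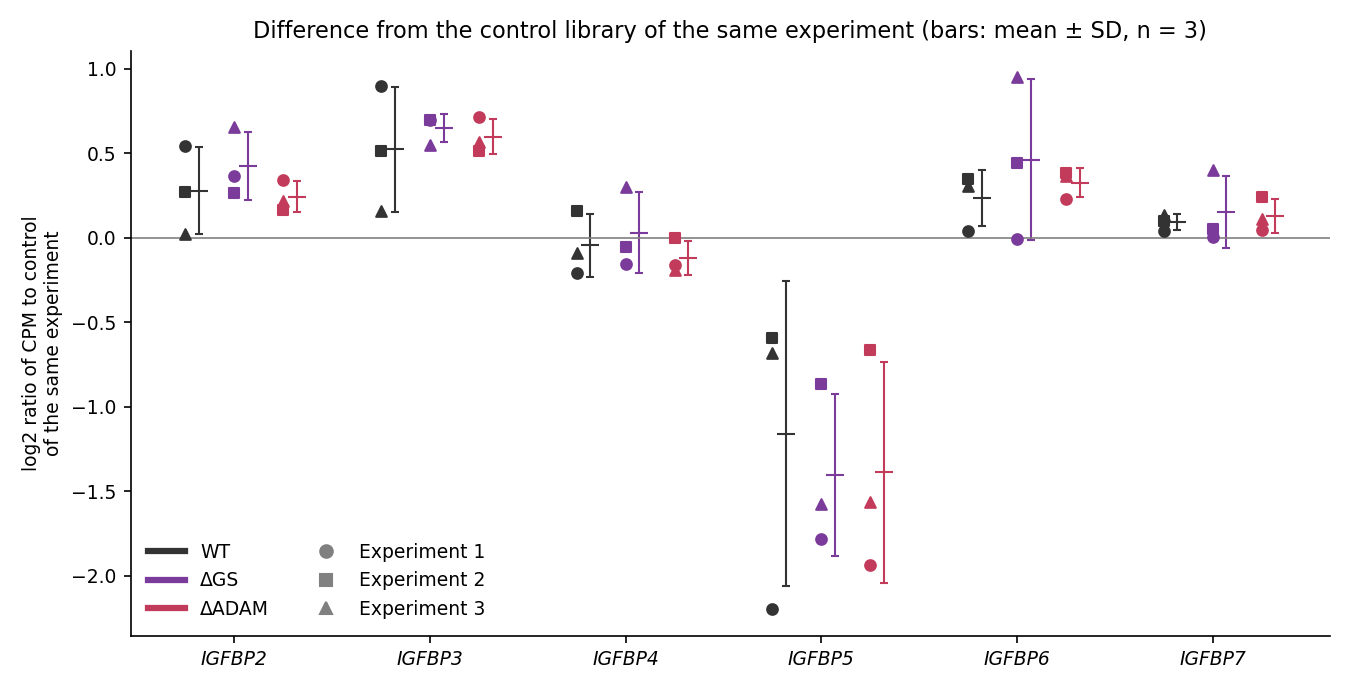
Log2 ratio of CPM to the control library of the same experiment for each gene, construct (color) and experiment (symbol), with the mean ± SD of the 3 experiments. All 9 ratios of IGFBP5 are below 0, from -2.20 to -0.59, all 9 of IGFBP3 are above 0, from 0.16 to 0.90, and those of IGFBP4 lie on both sides of 0.

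IGFBP2 and IGFBP7 were slightly above control in 9 of 9 within-experiment comparisons, and neither was called in any comparison. IGFBP2, which binds IGFs and integrins, was at 33.1, 31.7 and 48.2 CPM in the control libraries of experiments 1, 2 and 3, at 48.2, 38.1 and 49.0 CPM with WT, at 42.6, 38.0 and 75.8 CPM with ΔGS and at 42.0, 35.5 and 56.1 CPM with ΔADAM. Its ratios to control ran from 1.02 (WT, experiment 3) to 1.57 (ΔGS, experiment 3), and the group ranges overlapped. The log2 fold changes were 0.27 ± 0.27 with WT, 0.46 ± 0.27 with ΔGS and 0.24 ± 0.27 with ΔADAM. IGFBP2 and IGFBP5 are neighbours on chromosome 2, on opposite strands with their 3′ ends 7668 bases apart, and their differences from control had opposite signs.

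IGFBP7, the member with low affinity for IGFs, was at 157, 141 and 172 CPM in the control libraries, at 162, 151 and 189 CPM with WT, at 158, 146 and 227 CPM with ΔGS and at 162, 166 and 186 CPM with ΔADAM. The ratios of IGFBP7 to control ran from 1.00 (ΔGS, experiment 1) to 1.32 (ΔGS, experiment 3), and its log2 fold changes were 0.09 ± 0.16, 0.17 ± 0.16 and 0.13 ± 0.16. Without the ΔGS library of experiment 3 the value with ΔGS was -0.04 in the model with the batch term. The groups overlapped, and within each group the library of experiment 3 was the highest.

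IGFBP4 and IGFBP6 were the members that did not keep the same direction in all 9 within-experiment comparisons. IGFBP4, an inhibitory binding protein that the protease PAPPA cuts, was at 102, 92.9 and 97.1 CPM in control, 88.1, 103.8 and 91.3 CPM with WT, 91.4, 89.3 and 119.7 CPM with ΔGS and 91.1, 92.6 and 85.1 CPM with ΔADAM. It was lower than control in 7 of 9 within-experiment comparisons and higher in 2. Its log2 fold changes were -0.04 ± 0.12, 0.04 ± 0.12 and -0.11 ± 0.12. The highest ΔADAM library, at 92.6 CPM, lay just under the lowest control library, at 92.9 CPM, and the other groups overlapped with control.

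IGFBP6, which prefers IGF2 as ligand, was at 3.68, 3.56 and 1.97 CPM in control, 3.79, 4.53 and 2.44 CPM with WT, 3.67, 4.84 and 3.80 CPM with ΔGS and 4.31, 4.64 and 2.54 CPM with ΔADAM. It was higher than control in 8 of 9 within-experiment comparisons, with a ratio of 0.996 in the remaining one (ΔGS, experiment 1), and the group ranges overlapped. The log2 fold changes of IGFBP6 were 0.25 ± 0.34, 0.45 ± 0.33 and 0.34 ± 0.33 with the batch term and 0.27 ± 0.21, 0.51 ± 0.20 and 0.37 ± 0.20 with a term for each experiment, on 14 to 146 counts per library, and IGFBP6 was not called with either model.

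With the batch term 0 of the 6 genes were called with WT, ΔGS or ΔADAM against control, where 0.0398%, 0.457% and 1.13% of the 15090 genes were called. With this model IGFBP5 had an unadjusted p under 0.05 in each of these comparisons and the other 5 genes in none. Over all 15090 genes, 2300, 2896 and 3087 had such a p. DESeq2 with the same term called IGFBP5 with ΔGS and 0 of the 6 with WT and with ΔADAM, where it called 2.49%, 4.03% and 4.45% of all genes with WT, ΔGS and ΔADAM. With a term for each experiment 1, 2 and 1 of the 6 were called, where 2.37%, 4.7% and 5.21% of all genes were. An unadjusted p under 0.05 was found for 2, 4 and 2 of the 6 (IGFBP5 and IGFBP3 in all 3 comparisons, IGFBP2 and IGFBP6 with ΔGS). The same held for 3244, 4020 and 4140 of the 15090 genes. Nothing is read from these counts, because the genes were chosen on the same contrasts. The median log2 fold change of the 6 was 0.17, 0.31 and 0.19 with the batch term, where that of all genes tested was within 0.01 of 0. The 3 comparisons share their control libraries.

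The constructs were also compared with each other, which asks whether the cleavage-site substitutions changed the response. Of the 6 genes 0 were called in WT against the mean of ΔGS and ΔADAM or in ΔGS against ΔADAM, where 0% of all genes were called in edgeR with either model and 118 and 119 genes had an unadjusted p under 0.05 with the batch term. None of the 6 had an unadjusted p under 0.05 in either comparison, with either model or in DESeq2, which called 1 gene (0.00663%) in each over all genes. IGFBP5 was 0.21 ± 0.35 higher on the log2 scale with WT than with the mean of the variants, with within-experiment differences of -0.34, 0.17 and 0.88, so that the sign differed between experiments. For IGFBP5 the difference between ΔGS and ΔADAM was -0.05 ± 0.41, with within-experiment values of 0.16, -0.20 and -0.01. For IGFBP3 the differences were -0.05 ± 0.41 and 0.08 ± 0.47. For the other 4 genes the differences ranged from -0.15 to 0.22 with standard errors between 0.10 and 0.31. Differences of the size of these standard errors could not be resolved with 3 libraries per group.

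The makeup of the family differed from control mainly in IGFBP5. It accounted for 37.9%, 41.0% and 30.7% of the summed TPM of the 6 genes in the control libraries of experiments 1, 2 and 3. With WT its share was 11.3%, 28.8% and 20.5%, with ΔGS 14.5%, 24.8% and 9.81% and with ΔADAM 13.2%, 27.2% and 12.1%, each below every control library. IGFBP7 held 34.1% ± 4.1 (SD, n = 3) in control and 40.6% ± 6.3, 42.4% ± 5.9 and 43.6% ± 5.9 with WT, ΔGS and ΔADAM. The summed TPM was 546 ± 38 in control and 514 ± 54, 508 ± 38 and 508 ± 43 with the constructs, with overlapping ranges. Without IGFBP5, the other 5 genes summed to 326, 348 and 363 TPM in control and to between 401 and 462 TPM in the 9 TYRO3 libraries. A TPM is a share of all transcripts in a library, so these values are relative, and fewer cells that express a gene and less RNA per cell cannot be told apart in bulk RNA. The TPM were also not scaled by the TMM method, so differences from control can depend on the unit. IGFBP4 with WT in experiment 1 was at 65.5 TPM against 63.8 TPM in control, but at 86.6% of control in CPM.

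**Figure D3:**
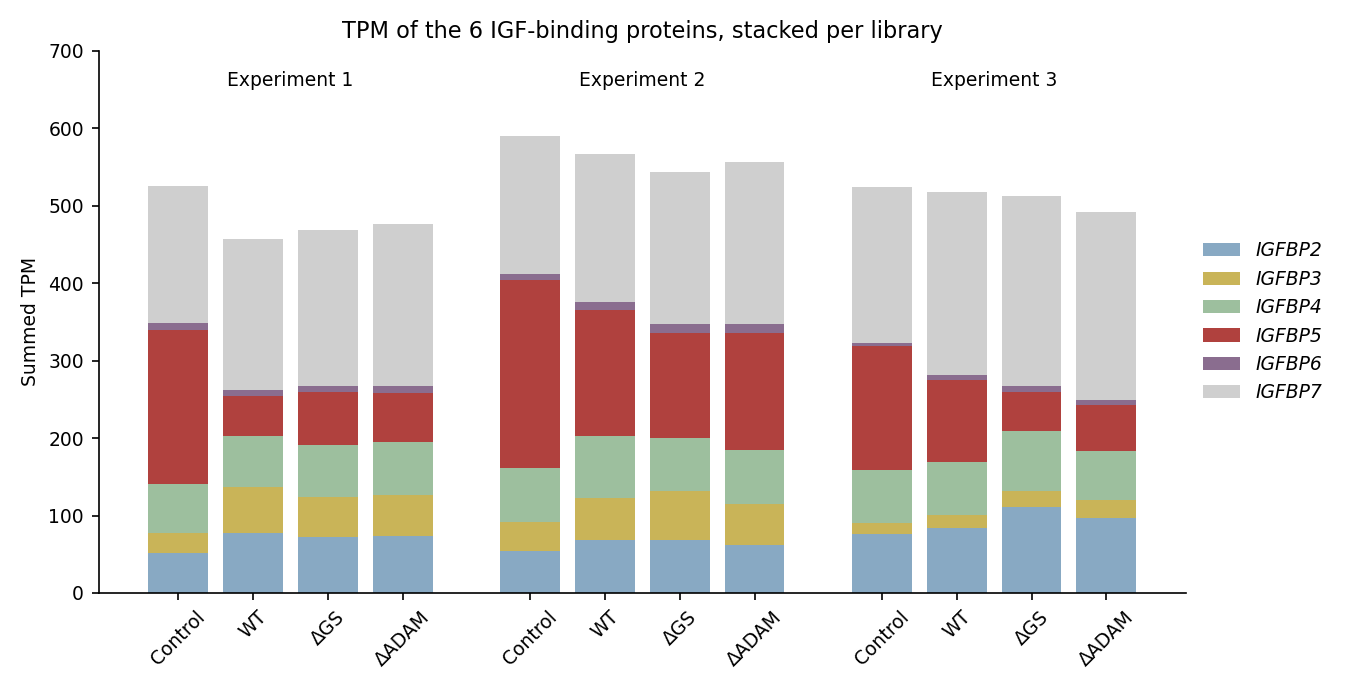
TPM of the 6 IGF-binding protein genes stacked for each of the 12 libraries, in 3 experiments. The IGFBP5 segment is larger in each control library, at 161 to 242 TPM, than in the TYRO3 libraries of the same experiment, where it ranges from 50.3 to 163 TPM, while the IGFBP7 segment stays between 177 and 246 TPM.

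The transcripts behind these gene values differed in how clearly they were assigned. IGFBP5-201, on chromosome 2 from 216672105 to 216695525 of GRCh38 with 6239 bases, held 99.875% to 100% of the gene's counts across the libraries. IGFBP4-201 (2205 bases) was the only IGFBP4 transcript in the files. IGFBP3-203 (2322 bases) held 81.2% to 92.7% of the IGFBP3 counts, with mean shares of 83.5% ± 3.0 in control and 89.5% ± 2.9 with ΔADAM (SD, n = 3). Its range in control, 81.2% to 86.9%, lay below those with ΔGS, 87.0% to 89.2%, and ΔADAM, 87.2% to 92.7%. With WT the range was 83.1% to 87.8% and overlapped with control. The control and ΔGS ranges nearly touched, and how many of all transcripts separate in this way was not counted. Across the libraries IGFBP3-201 held 0% to 18.8% and IGFBP3-210 0% to 12.5% of the IGFBP3 counts. In the ΔGS library of experiment 3 IGFBP3-201 was at 0% and IGFBP3-210 at 12.5%. IGFBP2 counts were split between IGFBP2-204 (42.4% to 65.4%) and IGFBP2-201 (33.5% to 54.7%), which overlap.

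For IGFBP7 the protein-coding IGFBP7-201 held 69.0% to 95.4% and the processed transcript IGFBP7-202 1.15% to 24.8% of the counts. For IGFBP6 the shares of IGFBP6-201 ran from 43.3% to 81.2% on few counts. Transcripts of 1 gene share reads, so these shares are estimates of kallisto and the gene sums are the firmer values. IGFBP7 overlaps POLR2B and IGFBP5 an antisense gene on the opposite strand. The kit marks strand, but whether kallisto used it is not given in the sources used here, so their part in the counts was not tested.

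Genes were ranked by how closely their levels followed each member over the 12 libraries, as Pearson's r of log2 CPM after the mean of each experiment was subtracted, among 12277 genes. The 12 points share libraries and experiments, and r is given as a description. The pair closest to IGFBP5 was MITF, the master transcription factor of melanocytes (r = 0.997), and PCDH7, a protocadherin (r = 0.995). MITF was at 306, 306 and 337 CPM in the control libraries, 94.97, 230 and 254 CPM with WT, 123, 208 and 157 CPM with ΔGS and 105, 214 and 157 CPM with ΔADAM. As for IGFBP5, every control library was above every TYRO3 library.

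PCDH7 was at 129 to 143 CPM in control and 45.8 to 104.8 CPM in the TYRO3 libraries. The 9 melanocyte lineage markers, MITF among them, summed to 3391 to 3767 CPM in control, 2506 to 3530 with WT, 2578 to 3364 with ΔGS and 2505 to 3185 with ΔADAM, and the fibroblast markers to 76.1 to 98.9, 60.6 to 79.7, 56.5 to 84.9 and 53.3 to 81.9 CPM. Among these markers MITF was called with ΔADAM with the batch term (-1.06 ± 0.23, adjusted p = 0.0493). With a term for each experiment MITF was called with ΔGS as well (-1.01 ± 0.22, adjusted p = 0.0214), DCT, a pigment enzyme, was called lower with ΔGS and ΔADAM (-1.24 ± 0.30 in both), and the fibroblast marker LUM was called lower in all 3 comparisons (-0.69, -0.61 and -0.65, SE 0.13). Not all markers went the same way. Within experiments MITF, DCT, TYR, PMEL and SOX10 were lower than control in 9 of 9 comparisons, whereas TYRP1, at most at 3.24 CPM, was higher in 9 of 9 and MCAM in 8 of 9. Of the fibroblast markers LUM and DCN were lower in 9 of 9, whereas COL1A1 was higher in 9 of 9, and COL1A2 was below the filter on low counts and not tested. TYRP1, MCAM, DCN and COL1A1 were not called with either model. The part of these changes in the IGFBP5 result was not tested.

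**Figure D4:**
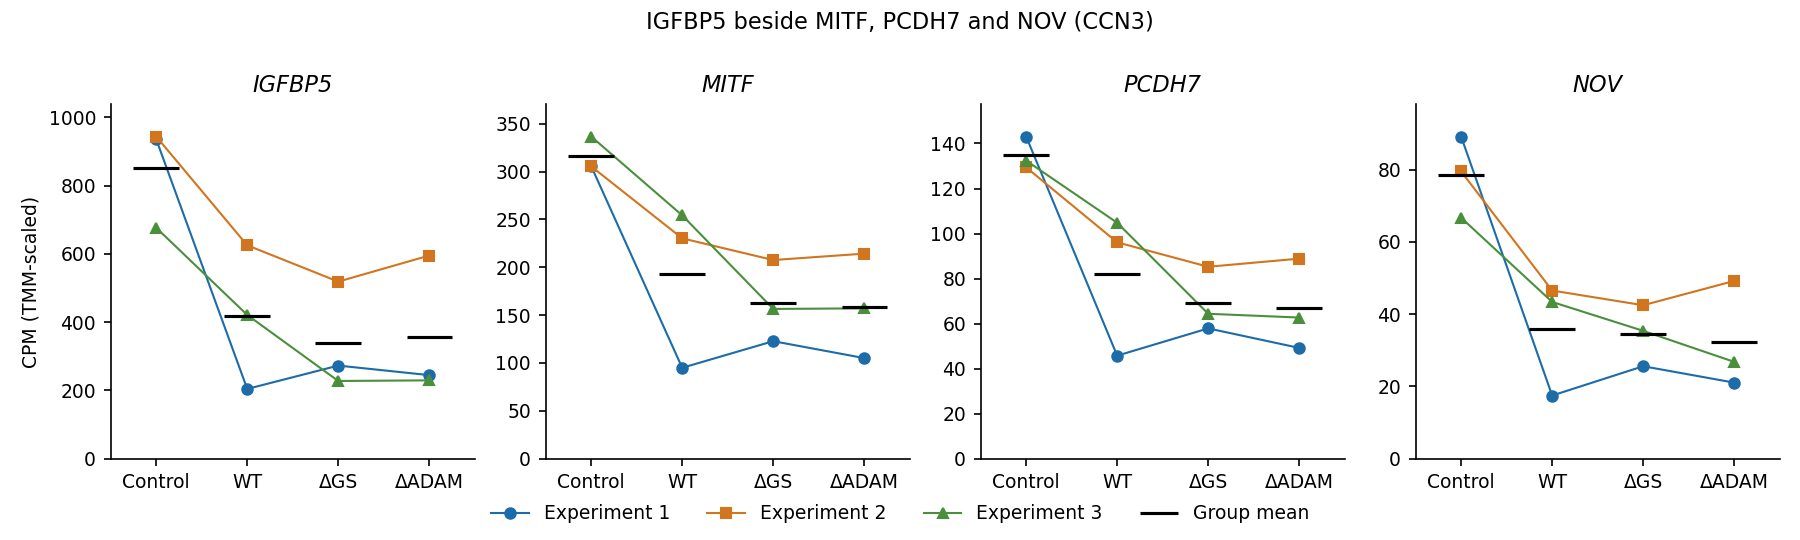
CPM (TMM-scaled, linear axes from 0) of IGFBP5, MITF, PCDH7 and NOV in the 12 libraries by group, with lines joining each experiment and bars for group means. In each panel every TYRO3 library lies below the control library of its experiment, and experiment 1 shows the largest difference with WT.

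CXCL3, a chemokine (r = 0.993), and SEMA4C, a semaphorin (r = 0.993), followed IGFBP3 most closely. CXCL3 was low, with 8 to 163 counts per library, and its log2 fold changes over control were 1.02, 1.21 and 1.07. The closest pairs were RNPS1 and EDF1 for IGFBP2 (r = 0.983 and 0.976), CENPB and OVCA2 for IGFBP4 (0.973 and 0.971), UMPS and RBM34 for IGFBP6 (0.957 and 0.951) and ZNF48 and MRPS9 for IGFBP7 (0.943 and 0.936).

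The rest of the IGF axis and the other genes with an IGFBP-type amino-terminal domain were taken as a list of 32 genes, 22 of which passed the filter. Ligands were near the limit of detection. INS had 0 counts in all 12 libraries, IGF2 0 counts in 7 libraries and at most 3, and IGF1 1 to 22 counts. Of the receptors, IGF1R was at 89.4 to 123 CPM and IGF2R, which clears IGF2 from the surface, at 301 to 487 CPM, whereas INSR had at most 8 counts. IGF1R and IGF2R were not called in any comparison. Yet IGF2R was lower than control in 9 of 9 within-experiment comparisons, and its control range did not overlap with that of any TYRO3 group. With the batch term 0, 0 and 1 of the 22 were called with WT, ΔGS and ΔADAM, beside the 0.0398%, 0.457% and 1.13% of all genes. With a term for each experiment 5, 6 and 6 were called, where 2.37%, 4.7% and 5.21% of all genes were.

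The gene called with the batch term was STC2, a stanniocalcin that inhibits PAPPA. It was at 8.42, 12.2 and 13.5 CPM in control and at 28.4 to 139 CPM in the TYRO3 libraries, with no overlap. Its log2 fold changes were 2.31 ± 0.55, 2.72 ± 0.55 and 2.91 ± 0.55, with adjusted p-values of 0.116, 0.0538 and 0.0435. With a term for each experiment STC2 and STC1, the related stanniocalcin, rose in all 3 comparisons, STC1 by 1.29 ± 0.18, 1.12 ± 0.18 and 1.24 ± 0.17. PAPPA itself, the protease of IGFBP4, was not called, at 0.76 ± 0.21, 0.60 ± 0.21 and 0.72 ± 0.21 in that model. GRB10, an adaptor that binds the IGF1 and insulin receptors, rose with ΔGS (0.77 ± 0.19) and ΔADAM (0.86 ± 0.19).

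Of the CCN proteins, matricellular proteins with an IGFBP-type domain, CYR61 (CCN1) and CTGF (CCN2) rose and NOV (CCN3) fell in all 3 comparisons with a term for each experiment. CYR61 changed by 0.88, 0.91 and 0.88 (SE 0.14) and CTGF by 0.96, 1.16 and 1.19 (SE 0.18). NOV was at 89.2, 79.5 and 66.7 CPM in control and 17.5 to 49.2 CPM in the TYRO3 libraries, with log2 fold changes of -1.19, -1.21 and -1.34 (SE 0.27) and adjusted p-values of 0.0408, 0.0228 and 0.0154. With the batch term NOV, CYR61, CTGF, STC1 and GRB10 were not called. In that model the median log2 fold change was 0.41, 0.40 and 0.58 over the 13 tested genes of the IGF axis and -0.08, 0.05 and 0.05 over the 10 tested domain genes (HTRA1 is in both), where that of all genes was within 0.01 of 0.

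**Figure D5:**
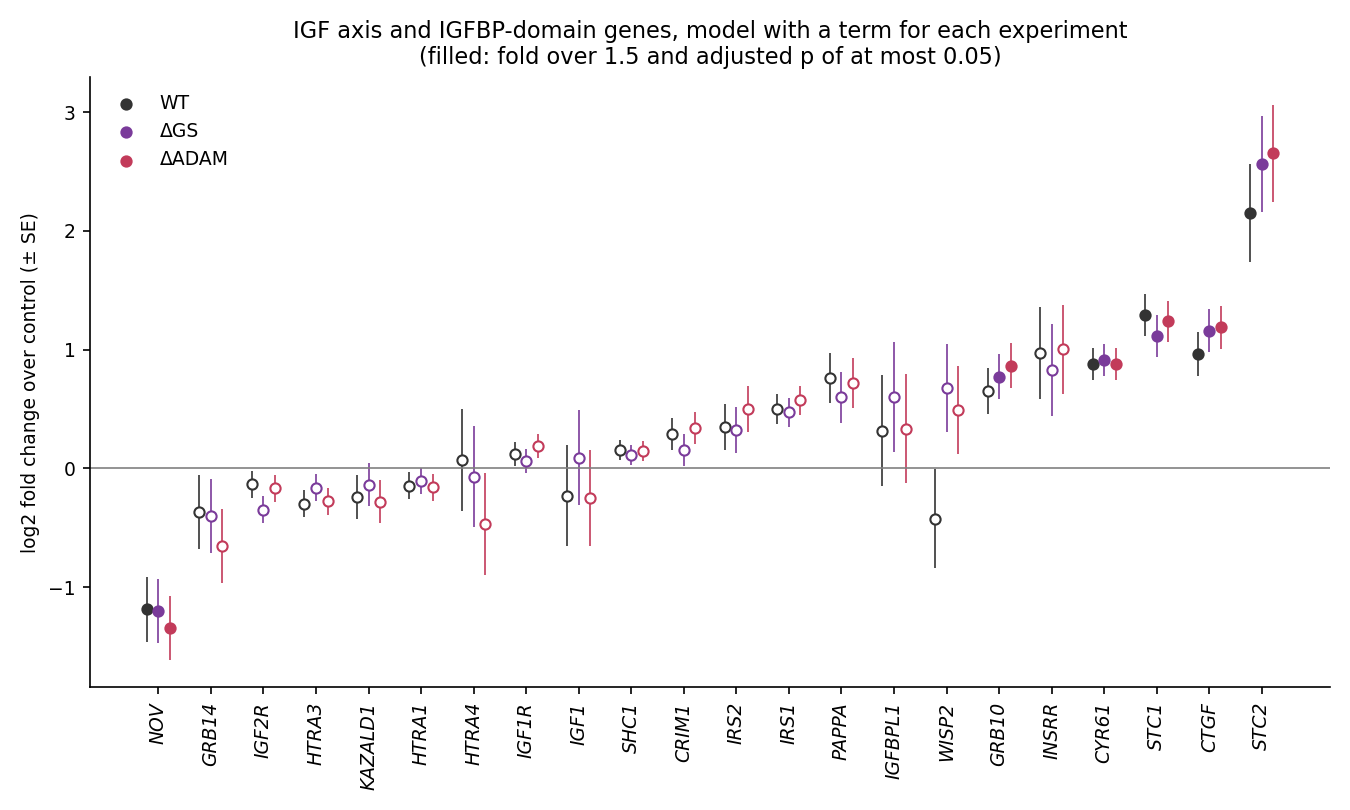
Log2 fold change over control (± SE) of the 22 tested genes of the IGF axis and of the IGFBP-domain list in the model with a term for each experiment, for WT, ΔGS and ΔADAM. Filled points passed a fold of 1.5 and an adjusted p of 0.05. NOV is the called gene below 0, and STC2 is the highest, between 2.15 and 2.66.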

How the data were processed

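Reads were trimmed by the authors (PRINSEQ, Trimmomatic 0.33), who then estimated, with kallisto 0.46.0 and the transcripts of Ensembl 96 (GRCh38), an expected count, an effective length and a TPM for each of 188753 transcripts in each library. The deposited expected counts and TPM precede the batch correction of the study. Here the unversioned identifiers of 169797 transcripts were found in GENCODE 29, which kept 97.4% to 97.5% of the counts, and their values were summed per gene and rounded.

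Libraries were assigned to groups and experiments from their labels. The main model, fitted in edgeR 4.0.16 (R 4.3.3, quasi-likelihood, TMM normalization, filterByExpr with a minimum count of 10 and total of 15), held 4 groups and 1 batch term that separates experiment 1 from the other experiments. The study corrected TPM for this split with batchelor, and here a model term took its place. P-values were adjusted over all genes by the Benjamini-Hochberg method. The labels mark a shared experiment, and the deviations of 18 pairs of libraries of the same experiment correlated at a median of 0.29, against -0.14 for 36 pairs of different experiments. Among the former, pairs with a control library were at 0.04 to 0.26 and pairs of TYRO3 libraries at 0.33 to 0.53. The pairing was thus weaker for the comparisons with control. Values with a term for each experiment are given where they change a call. The scripts were checked on simulated data. Alternatives used DESeq2 1.42.0 and limma 3.58.1, and their effects are given in the closing section.

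The members and gene lists were chosen with earlier results of these data known. All 6 members are named, with the pair of genes most alike to each and the genes of the IGF lists that were called. NOV, the other called list genes and markers, PAPPA, IGF1R and IGF2R were named after their values were seen. Promoter windows are from RefSeq (GRCh38.p14).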

Additional observations from a re-analysis of the deposited data

How the results depend on the processing

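The counts of the 6 genes called against control moved with the treatment of the experiments. With WT, ΔGS and ΔADAM they were 0, 0 and 0 with the batch term, 1, 2 and 1 with the replicate block (a term for each experiment), 1, 1 and 1 without a filter on low counts, 0, 1 and 0 in DESeq2, 0, 2 and 2 with the block and an offset for transcript length, and 1, 2 and 2 with the block in DESeq2. Over all genes 357, 709 and 786 of 15090 were called with the block, 565, 764 and 881 of 25253 without a filter, 376, 608 and 672 of 15090 in DESeq2, 246, 565 and 590 with the block and the offset and 612, 834 and 894 with the block in DESeq2, beside 6, 69 and 171 with the batch term. The counts of the 22 tested IGF axis and domain genes called were 0, 0 and 1 with the batch term, 5, 6 and 6 with the block and 2, 2 and 3 in DESeq2, beside the same counts over all genes. With 1 library left out in turn the members' counts stayed at 0 with the batch term, and with the block they ranged from 0 to 2 in each of the 3 comparisons. Alternatives that combine the block with another setting, and those on the lists, were chosen after seeing the data. Among the members, the listed genes and the markers, the block changed no call beyond those given in the report. Calls of the other genes named as most alike to a member, such as PCDH7 and CXCL3, were not examined with the block.

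Size factors of DESeq2's type, at least 10 counts in every library, limma on log2(TPM + 1) or log2(TPM + 0.1), no batch term, experiments 2 and 3 alone, only the compared groups, a length offset and no threshold on the fold left the members' counts at 0 in all 5 comparisons. Over these and the other alternatives, 1043 of the 1110 log2 fold changes of the members moved by less than the spread between replicates. The other 67 moved by more. With no member called in the main model, a reversal of a called value could not occur. The direction against control held in all 37 alternatives for IGFBP5, IGFBP3 and IGFBP2 with each construct. The alternatives refit the same libraries, in which the genes were chosen with these differences in view, so this is a description. For IGFBP4 the direction held in 27 with WT against control and in 24 with WT against the mean of the variants. Against control it held in 35 for IGFBP4 with ΔGS and with ΔADAM, in 35 for IGFBP6 with WT and in 36 for IGFBP7 with ΔGS. The cause of these shifts was not tested. The shallow control library of experiment 1 had 14 counts for IGFBP6.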
